A study of Mus musculus with 3 samples.

Results

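The genes described here are 34 targets and components of the ATF4 branch of the integrated stress response and of the amino acid response. They were taken by gene symbol from a list of names, which was chosen with earlier results of these data known. All 34 have a probe on the array, out of 24842 genes with a symbol. A probe well above background on at least 1 array was found for 32 of the 34, and for 15801 of all genes. RNA came from Hepa1c1c7, a mouse hepatoma line, transfected with a Cd74 vector (Cd74 is the invariant chain of MHC class II and a receptor for the cytokine MIF), a Tmem54 vector (Tmem54 is a transmembrane protein) or the Empty vector. Each vector was measured on 1 Agilent array of 1 colour, so there are 3 arrays, no replicates, no test and no p-value. Cells on all 3 arrays are of the same line and were each transfected with a vector, and they are told apart by the vector label. With 1 culture per vector, the vector cannot be separated from other differences between the cultures. The labels used here do not give the time after transfection, the promoter of the vectors, or whether the cells were a pool or a clone. In RNA of whole cultures, more transcript per cell and more cells with the transcript cannot be told apart.

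In the integrated stress response, kinases that sense amino acid shortage, misfolded protein, double-stranded RNA or haem shortage phosphorylate the translation factor eIF2. General protein synthesis then slows, while the mRNA of the transcription factor ATF4 is translated better through its upstream reading frames. ATF4, often paired with a C/EBP protein, switches on genes for amino acid uptake and synthesis, further transcription factors such as CHOP (Ddit3), and the phosphatase subunit GADD34 (Ppp1r15a) that dephosphorylates eIF2 and so closes the loop. Much of ATF4's own control is therefore translational and not visible in an mRNA level.

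Values are processed signals, the scanner's background-corrected brightness in arbitrary units. A difference is the log2 processed signal scaled to the 75th percentile of each array, and it is set against the model error that the array software gives. That error was 0.20 on the log2 scale for the median member in each comparison. For bright probes it follows from a multiplicative error of 0.1 preset in the software, so it is not noise measured on these arrays. Between replicate spots of the same probe, the median SD was 0.036 to 0.039 on the log2 scale. Neither value covers the spread between cultures. Over all genes measured on both arrays of a comparison, the spread of differences (robust SD) was 0.215 for Cd74 against Empty, 0.104 for Tmem54 against Empty and 0.248 for Cd74 against Tmem54. Signals of different probes are not comparable with each other, so each gene is set only against itself on another array.

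Both transfected genes were bright on their own array. The Cd74 probe had a signal of 10855 on the Cd74 array, 22.4 on the Tmem54 array and 26.8 on the Empty array. The Tmem54 probe had 2.83 on the Cd74 array, 19747 on the Tmem54 array and 2.78 on the Empty array, and it was not well above background on the Cd74 and Empty arrays. Of 10 hepatocyte markers, 6 were well above background on each array, among them Afp, Alb, Trf and Foxa2. The defining hepatocyte genes Hnf4a, Ttr, Apoa1 and Apob were not well above background on any array. Of 7 macrophage markers, 6 were well above background on each array (Adgre1 was not), with summed signals of 13702 on the Cd74 array, 14550 on the Tmem54 array and 14914 on the Empty array. Their median difference from Empty was -0.09 for Cd74 and -0.06 for Tmem54. The hepatocyte sum was 69053 on the Cd74 array, 94075 on the Tmem54 array and 83894 on the Empty array, with median differences of -0.15 for Cd74 and 0.11 for Tmem54. Among these markers Alb differed most, at -0.87 for Cd74 and 0.83 for Tmem54, and its next probe gave -0.92 and 0.85. The others with a value lay between -0.33 and 0.07 for Cd74. For 8 fibroblast markers, 7 were well above background on each array (Lum was not), and the sums were 92020, 82630 and 90927 on the Cd74, Tmem54 and Empty arrays. Most of the fibroblast sum is Dcn, and the median difference of the markers was -0.25 for Cd74 and 0.20 for Tmem54. Of 6 endothelial markers 3 were well above background on each array (Cdh5, Kdr and Tek were not), with sums of 241.0 on the Cd74 array, 183.7 on the Tmem54 array and 215.3 on the Empty array. The higher endothelial sum on the Cd74 array comes from Vwf (125.6 for Cd74, 48.4 for Tmem54 and 67.5 for Empty), while the median difference was -0.18 for Cd74 and -0.34 for Tmem54. Vwf differed by 0.96 for Cd74 and -0.49 for Tmem54 on its brightest probe, and by 0.19 and 0.30 on the next. Such a sum is dominated by its brightest probes. The part of these marker differences in the values below was not tested.

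Many ATF4 response genes carry a C/EBP-ATF response element near their start, and some of their promoters are shown here for that reason. The core TGATGNAA, or TTNCATCA when read on the other strand, was searched in windows of 250 bases before to 50 bases after each transcription start, from RefSeq on build GRCm38.p6. The table of windows held 29 of the 34 genes. A core lay in the window of 9 of these 29 genes (31.0%), against 4.51% of all 27025 genes in the table. The 250 bases before the start follow for 5 genes with a core, chosen among those higher with Cd74, and for Ppp1r15a, also higher with Cd74, whose window holds none. They are written 5′ to 3′ on the strand of the gene, with the core in capitals.
Slc7a11 (chr3:50443614-50443863, minus strand): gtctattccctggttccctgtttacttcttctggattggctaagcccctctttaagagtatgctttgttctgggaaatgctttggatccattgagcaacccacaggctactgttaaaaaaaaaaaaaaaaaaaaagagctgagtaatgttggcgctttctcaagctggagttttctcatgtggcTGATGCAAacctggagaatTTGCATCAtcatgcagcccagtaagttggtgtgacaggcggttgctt
Chac1 (chr2:119350992-119351241, plus strand): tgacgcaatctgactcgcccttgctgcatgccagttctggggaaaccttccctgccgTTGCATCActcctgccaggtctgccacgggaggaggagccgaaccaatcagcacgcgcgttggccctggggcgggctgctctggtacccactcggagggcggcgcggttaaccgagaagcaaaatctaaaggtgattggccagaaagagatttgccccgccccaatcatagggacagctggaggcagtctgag
Atf3 (chr1:191183334-191183583, minus strand): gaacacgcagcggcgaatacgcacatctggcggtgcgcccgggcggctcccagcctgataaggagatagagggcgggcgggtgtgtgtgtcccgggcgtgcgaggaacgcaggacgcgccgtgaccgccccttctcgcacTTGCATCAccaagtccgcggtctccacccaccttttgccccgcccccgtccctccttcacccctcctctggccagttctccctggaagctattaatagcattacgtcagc
Nupr1 (chr7:126625471-126625720, minus strand): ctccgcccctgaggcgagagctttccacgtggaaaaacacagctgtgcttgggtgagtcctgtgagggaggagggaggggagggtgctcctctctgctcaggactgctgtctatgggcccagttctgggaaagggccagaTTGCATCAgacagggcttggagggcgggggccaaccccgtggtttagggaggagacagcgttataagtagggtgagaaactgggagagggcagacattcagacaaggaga
Asns (chr6:7693210-7693459, minus strand): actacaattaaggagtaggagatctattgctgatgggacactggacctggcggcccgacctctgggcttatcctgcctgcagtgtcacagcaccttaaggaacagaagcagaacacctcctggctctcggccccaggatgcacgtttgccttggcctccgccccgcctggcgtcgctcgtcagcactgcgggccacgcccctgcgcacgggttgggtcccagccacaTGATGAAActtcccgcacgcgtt
Ppp1r15a (chr7:45526269-45526518, minus strand): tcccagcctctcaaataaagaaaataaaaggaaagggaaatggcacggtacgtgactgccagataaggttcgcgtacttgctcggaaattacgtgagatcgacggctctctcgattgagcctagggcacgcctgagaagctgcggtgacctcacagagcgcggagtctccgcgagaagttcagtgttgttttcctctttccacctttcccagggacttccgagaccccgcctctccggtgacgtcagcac

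Slc7a11 held 2 cores, 1 on each strand, whose first bases lie 66 and 47 bases before the start. In Atf3 and Nupr1 the core begins 110 bases before the start, in Chac1 193 bases and in Asns 23 bases. Fgf21, Pycr1, Slc1a4 and Vldlr also held a core. The Slc1a4 core begins 4 bases before the start and runs across it. No core in a window says only that these letters are not there: Slc6a9, Ddit3, Atf5, Slc3a2 and Gdf15 had none, as did Phgdh and Psat1.

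**Figure D1:**
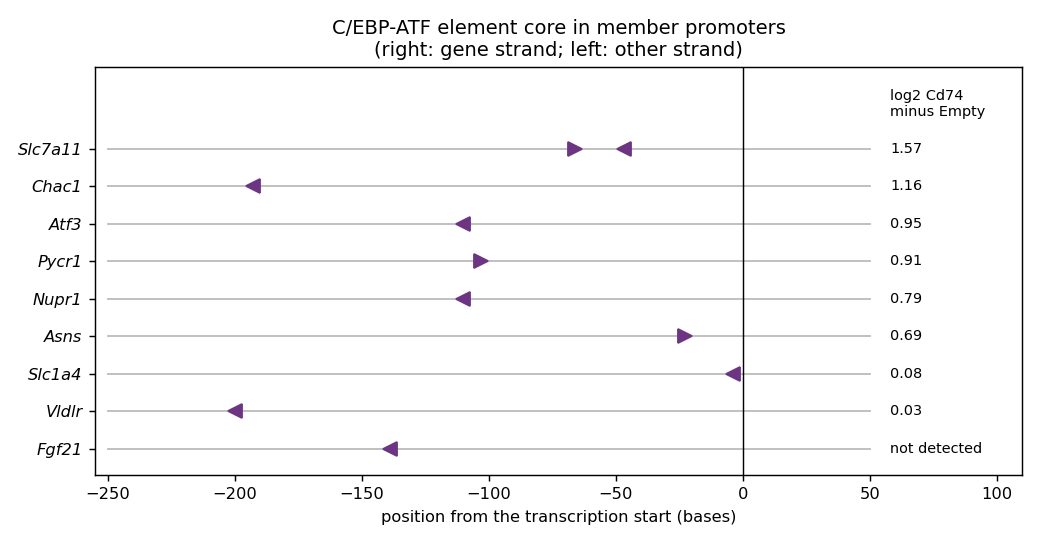
Position of the C/EBP-ATF element core (triangles, pointing right on the gene strand and left on the other strand) from the transcription start, in bases, in the 9 genes whose window holds it. The number at the right of each line is the log2 difference of Cd74 minus Empty, which ran from 1.57 for Slc7a11 to 0.03 for Vldlr; Fgf21 was not detected.

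Compared with Empty, the Cd74 array had higher signals for most of the set. Of the 32 genes with a value, 29 were above 0 (90.6%, against 52.3% of all genes) and 3 below. The median difference was 0.35 on the log2 scale, against 0.013 over all 15616 genes compared. Slc7a3 was not well above background on the Empty array, so its value is a lower bound, which by rule could only be above 0. With detection on each of the 3 arrays required, 31 of the genes were compared, with a median of 0.26, against 0.015 over all genes. At least 2-fold higher were 4 genes (Slc7a11, Slc6a9, Ppp1r15a and Chac1), where 1.02% of all genes compared were, and 0 were at least 2-fold lower, where 1.40% of all genes were. At least 1.5-fold higher were 13 genes, against 3.39% of all genes, and 0 were at least 1.5-fold lower, against 4.14%. With detection on each of the 3 arrays required, 12 genes were at least 1.5-fold higher, against 2.25% of all genes. Many 2-fold calls over all genes rest on probes that are dim on 1 array: where the filter required detection on each of the 3 arrays, 0.387% of genes were at least 2-fold higher with Cd74, and all 4 of the genes named were among those measured on all 3.

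Compared with Empty, the Tmem54 array gave small differences for these genes, most of them below 0. The median difference was -0.08, against -0.003 over the 15516 genes compared, with 7 genes above 0 (21.9%, against 49.0% of all genes) and 25 below. The 7 include Slc7a3, again a lower bound that by rule could only be above 0. Only Slc7a11 was at least 2-fold lower, where 0.812% of all genes were, and 0 genes were at least 2-fold higher, where 0.522% were. Under normexp Slc7a11 was at -0.89, and the count at least 2-fold lower was 0. At a threshold of 1.5-fold the counts were again 1 lower and 0 higher, with 2.49% of all genes lower and 1.32% higher.

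Set directly against Tmem54, the Cd74 array was at least 2-fold higher for 5 genes, the 4 above and Atf3, where 1.63% of 15423 genes were. None (0) was at least 2-fold lower, where 1.69% of all genes were. At least 1.5-fold higher were 11 genes, against 5.07% of all genes, and 0 were at least 1.5-fold lower, against 4.80%. The 11 were the 13 of Cd74 against Empty without Slc7a3 and Pycr1, the dimmest of the 13. Comparisons with Empty share the Empty array, and comparisons with Cd74 share the Cd74 array, so they are not independent of each other.

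**Figure D2:**
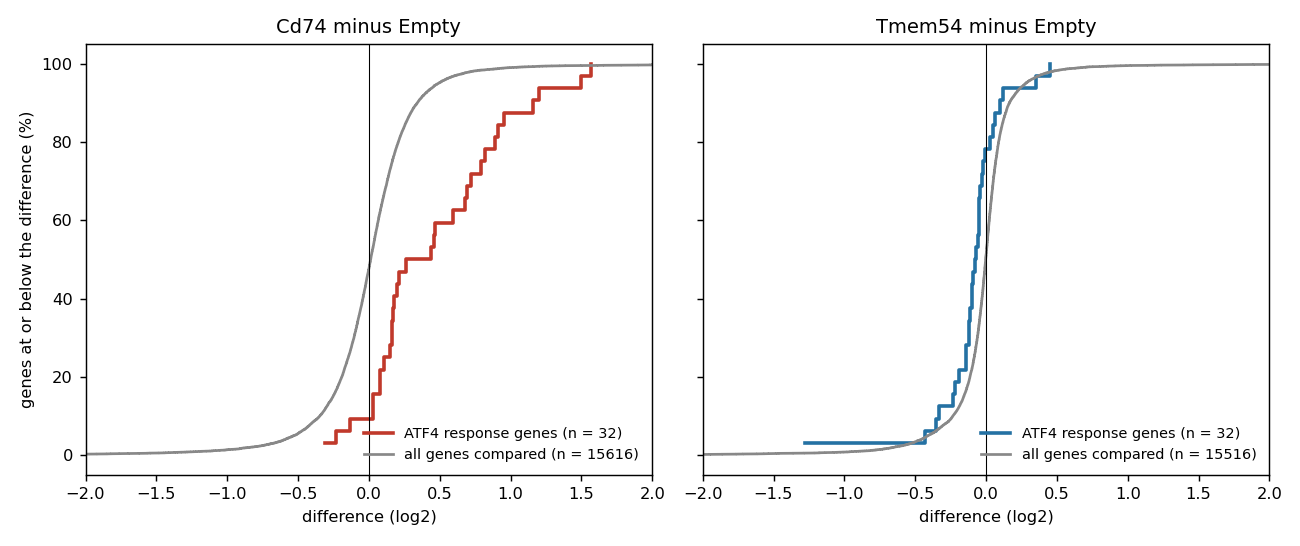
Share of genes (%) at or below each log2 difference for Cd74 minus Empty (left, red) and Tmem54 minus Empty (right, blue), for the 32 ATF4 response genes with a value, against all genes compared (grey). The red curve lies to the right of the grey one, with medians of 0.35 and 0.013, while the blue curve lies slightly left, with medians of -0.08 and -0.003.

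The 7 genes grouped as transcription factors include the chromatin protein Nupr1. All were above 0 for Cd74 against Empty, with a median of 0.79, and 4, Nupr1 among them, were at least 1.5-fold higher. The median is the value of Nupr1, whose second probe gave 0.06. Of all genes compared, 52.3% were above 0 and 3.39% at least 1.5-fold higher. Atf4, the factor that gives the response its name, had signals of 83570 on the Cd74 array, 69619 on the Tmem54 array and 63631 on the Empty array. Its difference was 0.46 for Cd74 and 0.12 for Tmem54, and its second probe gave 0.35 and -0.04. The Atf4 mRNA was thus highest on the Cd74 array, by less than 1.5-fold.

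Atf3, a stress-induced factor that binds many of the same elements, had signals of 704 on the Cd74 array, 286.4 on the Tmem54 array and 382.5 on the Empty array. The difference was 0.95 (1.93-fold, just under the 2-fold line) for Cd74 and -0.43 for Tmem54. Set directly against Tmem54, Cd74 was 2.59-fold higher for Atf3, a difference of 1.38. The Tmem54 array was the lowest of the 3 for this gene.

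Atf5, whose mRNA carries upstream reading frames like that of Atf4, had signals of 45512 on the Cd74 array, 26560 on the Tmem54 array and 26961 on the Empty array. Its differences were 0.82 for Cd74 and -0.03 for Tmem54, and its second probe gave 0.74 and -0.12. Ddit3, which encodes CHOP, a factor that promotes cell death in prolonged stress, had 1855 on the Cd74 array, 1018 on the Tmem54 array and 1046 on the Empty array. On this brightest probe of Ddit3 the Cd74 array stood apart, while Tmem54 and Empty differed by less than the model error.

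The difference of Ddit3 was 0.89 (1.86-fold) for Cd74 and -0.05 for Tmem54. Its probe spans 126732518 to 126732821 of chromosome 10 (build mm9), which is longer than a probe and so crosses an intron. A dimmer second Ddit3 probe, designed on another transcript, read 147.2 on the Cd74 array, 136.2 on the Tmem54 array and 118.1 on the Empty array, differences of 0.38 and 0.19. Both Ddit3 probes were above 0 for Cd74, by unequal amounts. Cd74 against Tmem54 was 0.94 on the brightest probe and 0.19 on the second.

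Nupr1, a small stress-induced chromatin protein, had signals of 5576 on the Cd74 array, 2999 on the Tmem54 array and 3382 on the Empty array. The differences were 0.79 for Cd74 and -0.19 for Tmem54. A second Nupr1 probe lay near the background, with 20.4, 17.1 and 20.4 on the Cd74, Tmem54 and Empty arrays, and gave 0.06 for Cd74. The 2 partners of the C/EBP family differed from each other. Cebpb, a regulator of acute-phase and metabolic genes in liver, was 0.44 higher with Cd74 (22033 on the Cd74 array, 15585 on the Tmem54 array, 17031 on the Empty array). Cebpg, a common partner of ATF4 on its elements, was within 0.03 of Empty with Cd74 (1296 on the Cd74 array, 1256 on the Tmem54 array, 1326 on the Empty array).

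**Figure D3:**
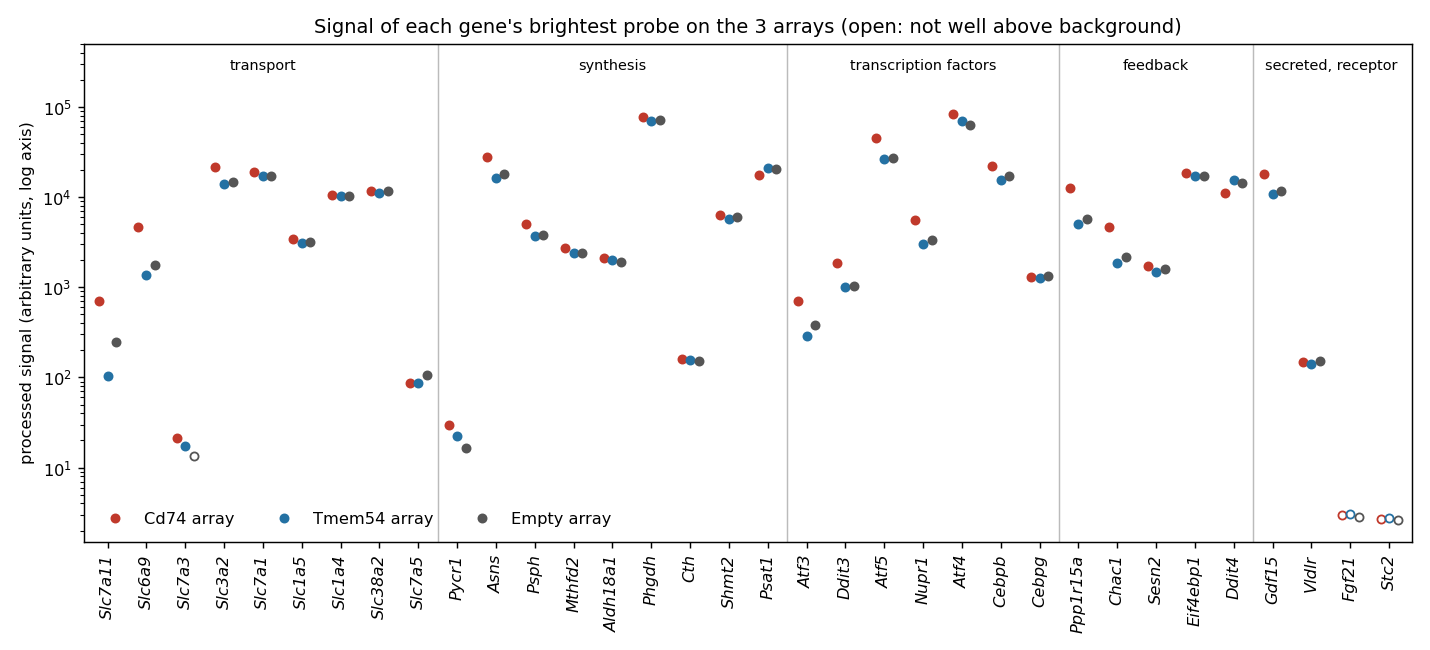
Processed signal (arbitrary units, log axis) of the brightest probe of each of the 34 genes on the Cd74 (red), Tmem54 (blue) and Empty (grey) arrays, grouped by function and ordered by the difference of Cd74 minus Empty; open circles are not well above background. For Slc7a11, Slc6a9, Ppp1r15a and Chac1 the red point stands above the other 2, while Slc1a4, Slc38a2, Cebpg and Vldlr have 3 points at nearly the same height.

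The 9 genes for amino acid transport had a median difference of 0.21 for Cd74 against Empty, with 2 of them 2-fold higher or more and 4 by 1.5-fold or more. Of all genes compared, 1.02% and 3.39% were higher by these amounts. Slc7a11 encodes xCT, the exchanger that brings in cystine for glutathione synthesis in return for glutamate, and is known as a target of NRF2 as well as of ATF4. Its signals were 704.5 on the Cd74 array, 103.7 on the Tmem54 array and 249.1 on the Empty array, so that all 3 arrays were apart. The difference from Empty was 1.57 (2.96-fold higher) for Cd74 and -1.28 (2.42-fold lower) for Tmem54, and Cd74 against Tmem54 was 7.17-fold higher. Slc7a11 ranked 77 from the top of 15616 genes for Cd74 against Empty and 85 from the bottom of 15516 genes for Tmem54 against Empty.

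The probe of Slc7a11 lies at 50176047 to 50176106 of chromosome 3 (build mm9). A second probe of the same accession, on a dimmer part of the scale, read 91.3 on the Cd74 array, 6.83 on the Tmem54 array (not well above background) and 36.6 on the Empty array. It gave 1.38 for Cd74 and a bound of -1.41 for Tmem54. The 2 probes of Slc7a11 thus had the same direction in both comparisons. The other 2 Slc7a11 probes were not well above background on any array.

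Slc6a9, the glycine transporter GLYT1, had signals of 4711 on the Cd74 array, 1380 on the Tmem54 array and 1748 on the Empty array. Its difference was 1.5 (2.82-fold) for Cd74 and -0.35 for Tmem54, and it has 1 probe, at 117541842 to 117541901 of chromosome 4 (build mm9). Slc3a2 is the heavy chain (CD98) that pairs with xCT and with several other SLC7 light chains at the cell surface. It had 21448 on the Cd74 array, 14014 on the Tmem54 array and 14898 on the Empty array, a difference of 0.59 for Cd74 and -0.10 for Tmem54.

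The 3 probes of Slc3a2 did not give equal values. The second gave 0.11 (4512 on the Cd74 array, 4621 on the Tmem54 array and 4372 on the Empty array), and the third, on another transcript, gave 0.55 (883.4, 563.7 and 629.4 in the same order of arrays). Slc7a5, the light chain LAT1 for large neutral amino acids, was lower on both vector arrays, with 86.9 for Cd74 and 85.9 for Tmem54 against 106.8 for Empty. Its differences were -0.23 and -0.33, with a model error of 0.21 each, and -0.10 and -0.15 under normexp background correction. On their brightest probes the heavy chain and xCT therefore lay on the same side of 0 with Cd74. This light chain lay on the other side, by about the model error.

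Slc7a3, a carrier of cationic amino acids, was dim, with 21.3 on the Cd74 array, 17.5 on the Tmem54 array and 13.6 on the Empty array, where it was not well above background. It was at least 1.64-fold higher than Empty with Cd74, and the bound for Tmem54 was 1.28-fold. These bounds hold for this scaling only: under normexp background correction the difference of Slc7a3 was 0.20 for Cd74, under 1.5-fold. Slc7a1, the main carrier of arginine and lysine, differed by 0.21 for Cd74 and -0.05 for Tmem54 (19187, 16968 and 17360 on the Cd74, Tmem54 and Empty arrays). The carriers of neutral amino acids Slc1a4, Slc1a5 and Slc38a2 differed from Empty by 0.08, 0.15 and 0.08 with Cd74 and by -0.04, -0.07 and -0.08 with Tmem54. For these 3 carriers each difference was smaller than the model error.

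The 9 genes for amino acid and one-carbon synthesis had a median of 0.20 for Cd74 against Empty, with 2 of them higher by 1.5-fold or more and 0 by 2-fold or more. Over all genes compared these shares were 3.39% and 1.02%. Asns, asparagine synthetase, the classical gene of the amino acid response, had signals of 27683 on the Cd74 array, 16398 on the Tmem54 array and 17966 on the Empty array. The difference was 0.69 (1.61-fold) for Cd74 and -0.14 for Tmem54, and the second probe gave 0.66 and -0.20. Asns thus had the same direction and nearly the same size on both of its probes.

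The serine pathway gave unequal values. Psph, which makes serine in the last step, had 5098 on the Cd74 array, 3716 on the Tmem54 array and 3843 on the Empty array, a difference of 0.47 for Cd74. Phgdh, the first enzyme, had 76489, 69464 and 71484 on the Cd74, Tmem54 and Empty arrays (0.16 for Cd74). Psat1, the aminotransferase between them, was lower with Cd74, at 17784 on the Cd74 array against 21253 on the Tmem54 array and 20356 on the Empty array, and its 2 probes gave -0.13 and -0.18. The 2 outer enzymes and the middle one therefore lay on different sides of 0, with only Psph beyond the model error.

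The mitochondrial one-carbon enzymes Shmt2 and Mthfd2 differed by 0.11 and 0.26 with Cd74 and by -0.10 and -0.02 with Tmem54. In proline synthesis, Aldh18a1, the first enzyme, differed by 0.20 with Cd74 and 0.06 with Tmem54. Cth, which makes cysteine from cystathionine, differed by 0.16 and 0.03. Pycr1, the last enzyme of proline synthesis, has 2 dim probes that disagree. The brighter read 29.5 on the Cd74 array, 22.6 on the Tmem54 array and 16.4 on the Empty array, a difference of 0.91 with a model error of 0.38. The other read 11.5 for Cd74 and 9.39 for Tmem54, neither well above background, against 20.9 on the Empty array, a bound of -0.57 for Cd74. No direction can be given for Pycr1, although its brighter probe is counted among the 13 genes at least 1.5-fold higher.

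**Figure D4:**
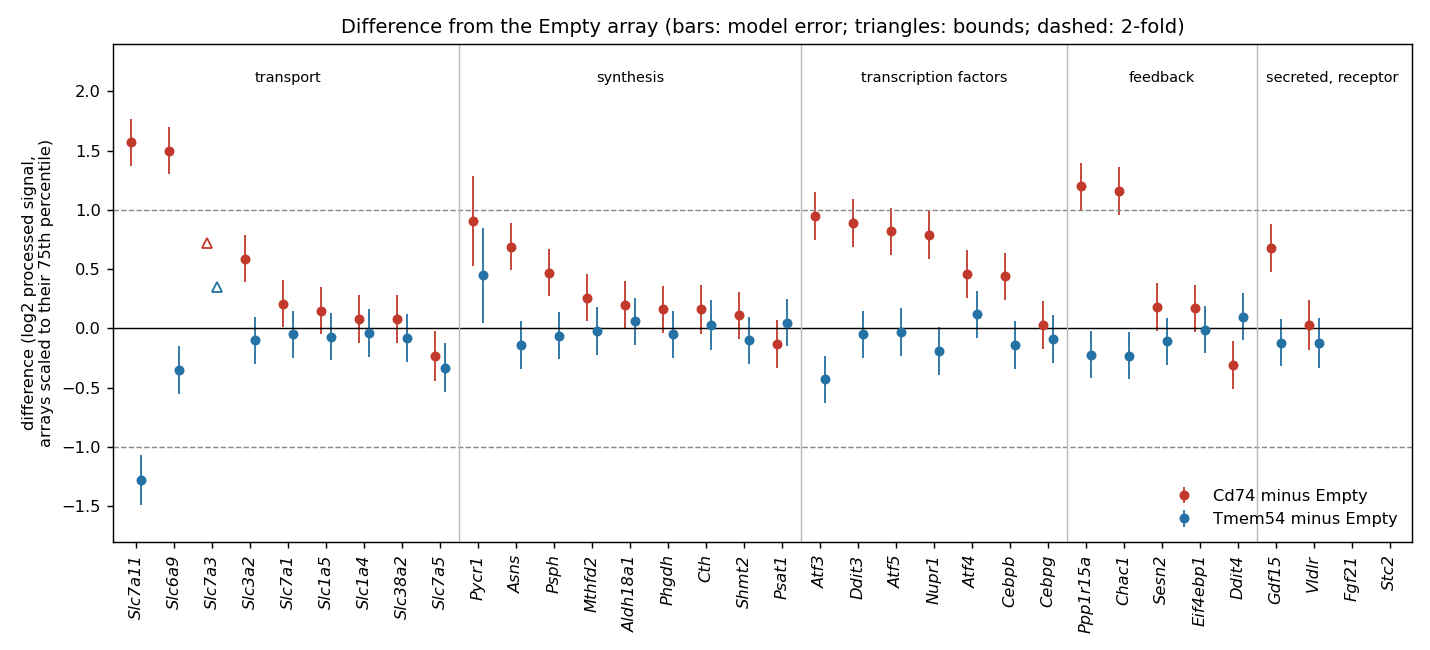
Log2 difference from the Empty array for Cd74 (red) and Tmem54 (blue) in each gene, with bars for the model error of the array software, triangles for bounds and dashed lines at 2-fold. Slc7a11, Slc6a9, Ppp1r15a and Chac1 lie above the upper dashed line with Cd74, and only Slc7a11 lies below the lower one with Tmem54; Fgf21 and Stc2 have no value.

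Of the 5 feedback and downstream regulators, 2 were at least 2-fold higher with Cd74 than with Empty, where 1.02% of all genes were. Ppp1r15a, the GADD34 subunit that directs a phosphatase to eIF2, had signals of 12704 on the Cd74 array, 4994 on the Tmem54 array and 5767 on the Empty array. The difference was 1.20 (2.30-fold) for Cd74 and -0.22 for Tmem54. Chac1, an enzyme that degrades glutathione, had 4659 on the Cd74 array, 1878 on the Tmem54 array and 2188 on the Empty array. Its difference was 1.16 (2.23-fold) for Cd74 and -0.23 for Tmem54. For both genes the Cd74 array was the highest, and Tmem54 lay slightly under Empty, by about the model error.

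The 3 regulators that act on mTORC1 and cap-dependent translation did not share this size. Sesn2, which binds leucine and restrains mTORC1, differed by 0.18 with Cd74 and -0.11 with Tmem54. Eif4ebp1, which blocks the cap-binding factor eIF4E, differed by 0.17 and -0.01. Ddit4 (REDD1), an mTORC1 inhibitor also induced by low oxygen, was lower with Cd74, at 11043 on the Cd74 array against 15506 on the Tmem54 array and 14320 on the Empty array. Its difference of -0.31 for Cd74 was the lowest of the 32 genes, and for Tmem54 it was 0.10.

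In the group of secreted factors and a receptor, Gdf15, a stress hormone that acts on appetite, had signals of 17989 on the Cd74 array, 10895 on the Tmem54 array and 11734 on the Empty array. The difference was 0.68 (1.60-fold) for Cd74 and -0.12 for Tmem54. Vldlr, a lipoprotein receptor, differed by 0.03 with Cd74 and -0.12 with Tmem54. Fgf21, a liver hormone of fasting, and Stc2, a secreted glycoprotein, were not well above background on any array, with signals of 2.62 to 3.09. The response therefore has no readout from these 2 genes here.

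With the promoter cores set beside these values, the 8 genes with a core and a value had a median difference of 0.85 for Cd74 against Empty, from 0.03 to 1.57. The 19 genes in the table without a core had a median of 0.26, from -0.31 to 1.5. At least 1.5-fold higher were 6 of the 8 with a core and 6 of the 19 without, against 3.39% of all genes compared. Pycr1, whose 2 probes disagree, is among the 6 with a core and enters their median. Slc1a4 and Vldlr held a core with differences of 0.08 and 0.03, while Slc6a9 and Ppp1r15a held none with 1.5 and 1.20. The core and the size of the difference thus did not always go together, and no test was made of their relation.

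A second detected probe exists for 13 of the 32 genes. With the next brightest probe in place of the brightest, 1 of these 13 was at least 2-fold higher for Cd74 against Empty (Slc7a11), and the other 3 genes with that difference have 1 detected probe each. On that probe 3 of the 13 were at least 1.5-fold higher (Slc7a11, Asns and Atf5). Of all genes with a next probe, 0.712% were at least 2-fold and 2.77% at least 1.5-fold higher. The 2 probes departed by more than 0.5 on the log2 scale for Cd74 against Empty in Ddit3 (0.89 and 0.38), Nupr1 (0.79 and 0.06) and Pycr1 (0.91 and -0.57).

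**Figure D5:**
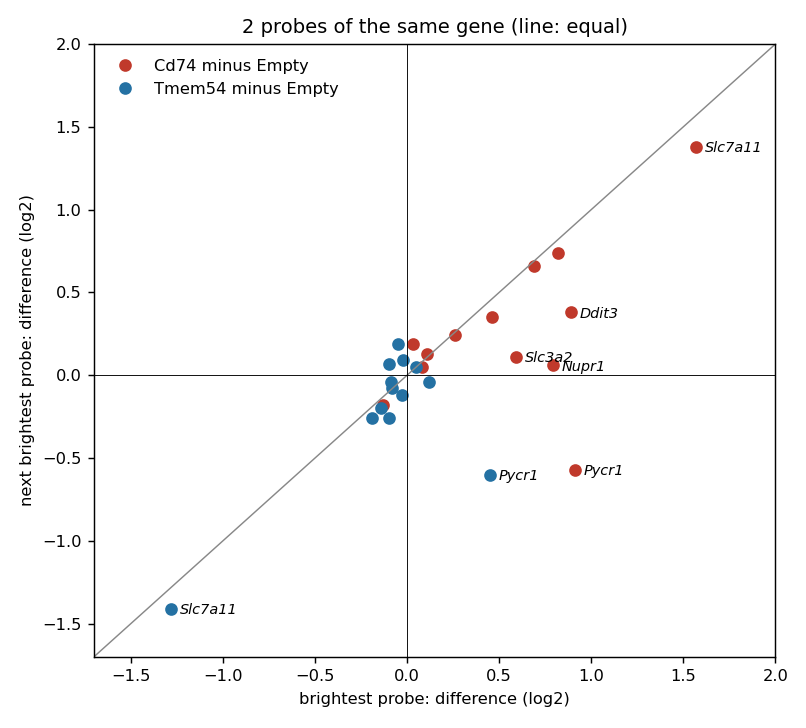
Log2 difference of the next brightest probe (vertical axis) against that of the brightest probe (horizontal axis) in the 13 genes with 2 or more detected probes, for Cd74 minus Empty (red) and Tmem54 minus Empty (blue), with the line of equal values. Slc7a11 lies near the line in both comparisons (1.57 and 1.38 for Cd74). For Cd74, Nupr1, Ddit3, Slc3a2 and Pycr1 lie below it.

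The wider pathway was followed in 5 further gene lists, counted on the brightest probes. Of all genes compared for Cd74 against Empty, 1.02% were at least 2-fold higher and 1.40% lower. At 1.5-fold the shares were 3.39% higher and 4.14% lower. In lists this small, a count of 0 or 1 says little beside these shares. The machinery upstream of ATF4 (the eIF2 kinases, the eIF2 and eIF2B subunits and their regulators, 18 genes, all compared) had a median of 0.08 for Cd74 against Empty, with 0 genes at least 1.5-fold in either direction. Eif2b3, a subunit of the exchange factor eIF2B, was highest at 0.46, followed by the adaptor Nck1 at 0.26, though the next probe of Nck1 gave -0.27. Eif2ak2, the kinase that senses double-stranded RNA, was lowest at -0.42 (2210 on the Cd74 array, 3049 on the Tmem54 array and 3101 on the Empty array). Dnajc3, an inhibitor of these kinases, was next at -0.20. The probes of other eIF2 kinases did not give equal values. Eif2ak1 gave 0.06 on its brightest probe and 0.57 on the next, and Eif2ak4 gave -0.07 and -0.58. For Eif2ak3 the values were 0.06 and -0.27.

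Among 22 other amino acid transporters, of which 16 had a value, the median was -0.11 for Cd74 against Empty, with 0 genes 2-fold higher or more and 1 lower by that much. Slc7a2, a cationic carrier, had 367.8 on the Cd74 array, 184.2 on the Tmem54 array and 250.9 on the Empty array, differences of 0.62 and -0.46 from Empty, and it was 2.11-fold higher with Cd74 than with Tmem54. Slc38a1, a carrier of glutamine, ran the other way, with 313.3 on the Cd74 array, 719.0 on the Tmem54 array and 637.3 on the Empty array, a difference of -0.96 for Cd74. Slc43a1, a carrier of large neutral amino acids, was at least 2.45-fold lower with Cd74 and 3.52-fold higher with Tmem54 than with Empty (3.17, 122.5 and 34.5 on the Cd74, Tmem54 and Empty arrays), but its second probe gave 0.56 and 0.22.

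The other genes of serine, one-carbon and transsulfuration metabolism (21 of 22 compared) had a median of -0.03 for Cd74 against Empty, with 0 at least 1.5-fold in either direction. The proline-degrading Prodh was highest on its brightest probe (0.46) but gave -0.11 on the next, and Gldc of glycine cleavage (-0.35) and Ahcy of the methionine cycle (-0.26) were lowest. The other basic leucine zipper factors that can pair with ATF4, C/EBP or AP-1 proteins (23 of 26 compared) had a median of 0.08, again with 0 at least 1.5-fold in either direction. Fosl1 (0.54) and Jun (0.40), both AP-1 subunits, were highest and Cebpd (-0.27) and Jdp2 (-0.25) lowest. Cebpd was further from Empty with Tmem54, at -0.68 (1.61-fold lower), with signals of 2747 on the Cd74 array, 2183 on the Tmem54 array and 3474 on the Empty array.

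Of 25 regulators of mTORC1 and autophagy, all compared, the median was 0.04 for Cd74 against Empty, with 1 gene 2-fold higher or more and 0 lower by that much. That gene was Sqstm1, the autophagy receptor p62, with 97566 on the Cd74 array, 35552 on the Tmem54 array and 43790 on the Empty array. Its difference was 1.22 for Cd74 and -0.31 for Tmem54, and its second probe gave 1.21 and -0.39. The medians of the 5 further lists lay between -0.11 and 0.08, against 0.35 for the 34 genes and 0.013 for all genes. The 34 genes and the lists were chosen with earlier results of these data known, so this contrast is not independent of that choice.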

How the data were processed

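Total RNA of Hepa1c1c7 cells was labelled with Cy3 and hybridised to 3 arrays, 1 per vector, on 1 slide with 1 scan time, per the file headers. Groups come from the transfection label. The deposited intensity of each spot is the processed signal of Agilent Feature Extraction 12.0.3.1, a linear value after background correction and detrending, per the file headers and the submitters' processing notes, with a preset multiplicative error of 0.1. The deposited value table of the authors was found to be the same signal divided by 1 constant per array (559.8 for Cd74, 580.7 for Tmem54 and 580.3 for Empty), so a ratio scale that is linear and uncentred. Its column medians were 0.0393, 0.0390 and 0.0409 for Cd74, Tmem54 and Empty.

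Of 62976 spots per array, 59305 are not controls. Spots well above background made up 56.1% of these for Cd74, 55.7% for Tmem54 and 57.2% for Empty, 0 were saturated, and 119 to 135 outlier spots per array were left out. The number of arrays limits the precision. The values computed here are log2 of the deposited processed signal minus the 75th percentile of the array. A gene takes its brightest probe among those detected (well above background) on 1 array or more. If 1 of the compared arrays did not detect it, the difference is a bound against the higher of the lowest signal well above background there and the probe's own signal, written as at least N-fold, and the measured value stays in the text. All 52 probes of the 34 genes are single spots, 46 were detected and 0 were flagged. Differences of at least 2-fold were counted, with 1.5-fold as an alternative. With 1 array per vector no test was possible. The counting was tested on simulated data.

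Other genes were named through RefSeq of GRCm38.p6: 33723 probes by accession, 9858 by symbol and 310 by synonym, while 12662 have no symbol there. Probe coordinates are mm9, from the array files. The genes named are the 34, the transfected genes, and of each further list those at least 2-fold apart in any comparison, or otherwise the 2 highest and 2 lowest for Cd74 against Empty, of which 1 is not reported here. For the 34 genes, the second probe was named where it departed by more than 0.5. Some others, also among markers and the further lists, were named after the values were seen. Not every departing probe outside the 34 genes is therefore given. Eif2ak1, Eif2ak3 and Eif2ak4 were named beyond these rules, for their next probes. The members and lists were chosen with earlier results of these data known. Alternatives were normexp with quantile normalization (offset 50, limma 3.58.1 in R 4.3.3), other scales, filters and probe rules. Other steps used Python 3.11.15, numpy 2.4.6 and pandas 2.3.3, and figures were drawn with matplotlib 3.10.9.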

Additional observations from a re-analysis of the deposited data

How the results depend on the processing

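For Cd74 against Empty the count of 4 genes at least 2-fold held under normexp with quantile normalization, the median scale, the deposited table, both filters on dim probes and the mean of probes. It was 1 with the next brightest probe (13 genes compared) and 13 at 1.5-fold. The median ranged from 0.19 to 0.44 over these settings. At 1.5-fold, normexp gave 11 genes (1.19% of all genes) and the mean of probes 10 (3.32%). The next brightest probe gave 3 of the 13 genes compared (2.77% of all genes). For Tmem54 against Empty the count was 0 under normexp, where Slc7a11 was at -0.89, and 1 under the other settings. For Cd74 against Tmem54 the count of 5 was 1 with the next brightest probe (12 genes compared) and 11 at 1.5-fold. The causes were not tested, beyond the fewer genes compared and the lower threshold. With the same probe, Slc7a11 lay between 1.42 and 1.57 for Cd74 against Empty, Slc6a9 between 1.48 and 1.5, Ppp1r15a between 1.19 and 1.20, and Chac1 between 1.12 and 1.16. Over all genes the share at least 2-fold higher with Cd74 than Empty was 0.333% under normexp, 0.387% where detection on each of the 3 arrays was required and 0.268% among bright genes. Dim probes limit Slc7a3, Pycr1 and Slc43a1. No paired analysis was possible because each vector has 1 array. All values rest on 1 culture per vector.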
